A study of Mus musculus with 30 samples.

Results

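Luminal and basal mammary epithelial cells sorted from the same parous K8iDRank mice were compared across all genes of a 3′ mRNA sequencing experiment. The 8 libraries, of 30 in the series, were 1 luminal and 1 basal library from each of mice 787, 794, 798 and 830, and were chosen by the lineage, stage and genotype in their labels. These females carried K8rtTA, TetO-Cre, a floxed Rank allele on both chromosomes and the mTmG reporter. They drank doxycycline at 1 mg/ml, which the labels place between weeks 3 and 8 of age. With doxycycline, rtTA driven from the Krt8 promoter turned on TetO-Cre, which removed Rank and switched on GFP in luminal cells. By this design the basal cells of the same animals kept Rank. The animals were of mixed background and parous, meaning that they had gone through pregnancy and about a month of involution. K8iDRank dams could not nurse their litters, so involution began at the start of lactation, whereas parous K8imTmG dams, which carried the same reporter and intact Rank, nursed until pup removal later in lactation. Cells were gated by CD24 and CD49f after exclusion of CD45+ and CD31+ cells, and the study shows a luminal gate restricted to GFP+ cells. For reference, the lineage difference was also taken in 4 parous K8imTmG mice (532, 534, 557 and 558) and in 3 virgin K8iDRank mice (821, 822 and 825), which had received the same doxycycline. The age at collection of each animal is not given in the sources used here. RNA integrity is given only as an average and a range that reaches low values, and not for each library. Reads from 3′ ends cannot show the deleted exons of Rank, so the genotype of these libraries rests on the labels. The study separately reports lower Rank mRNA by qPCR in sorted GFP+ luminal cells of K8iDRank mice.

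The mammary duct is a bilayer. Inner luminal cells comprise hormone-sensing cells, which carry estrogen, progesterone and prolactin receptors, and hormone receptor-negative progenitors, which produce the alveolar cells that secrete milk. Outer basal cells are contractile myoepithelial cells that rest on the basement membrane and squeeze milk out in response to oxytocin. Rankl, secreted by hormone-sensing cells under progesterone, binds Rank on neighbouring progenitors and basal cells and activates NF-κB, while the decoy receptor osteoprotegerin captures Rankl before it binds.

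Luminal libraries held 2214318 to 3130419 reads and basal libraries 1844364 to 2996649 reads. Values are the authors' normalized read counts, in which 1 read was worth 0.381 to 0.557 in luminal and 0.429 to 0.797 in basal libraries. The basal libraries split by Clec2d, which encodes a C-type lectin ligand. It stood at 78.9 and 68.3 normalized counts in basal libraries 794 and 830, marked because they exceed 30, and at 4.29 and 4.84 in basal libraries 787 and 798. In the luminal libraries it was 1.97 to 2.28. This split was not given by the labels, and its origin was not tested. Basal libraries 794 and 830 also held the fewest reads of the basal libraries, 1844364 and 2677273. Results are therefore also given in mice 787 and 798, where both libraries were Clec2d-low, and in mice 794 and 830, where the basal library was Clec2d-high.

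The lineage markers separated the libraries of every mouse. Krt8, a luminal keratin (chr15:101905133-101912917 on the minus strand of GRCm39), was at 1288, 1902, 1623 and 1823 normalized counts in luminal libraries 787, 794, 798 and 830 and at 341, 381, 383 and 355 in the basal libraries of the same mice. Its means were 1659 ± 274 and 365 ± 20.5 (SD, n = 4), a difference of 2.17 on the log2(normalized count + 1) scale (SE 0.19, limma adjusted p = 5.7e-05). Krt18, its partner (chr15:101936615-101940462), differed by 3.33 (SE 0.21, adjusted p = 1.1e-05), from 1535 to 2098 in luminal and from 146 to 238 in basal libraries. In both genes the lowest luminal library lay well above the highest basal one.

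Krt5, the basal keratin that partners Krt14 (chr15:101615505-101621346), was at 2.66, 2.46, 2.79 and 4.47 normalized counts in luminal and at 975, 993, 1043 and 811 in basal libraries, a log2 difference of -7.89 (SE 0.23, limma adjusted p = 8.1e-07). Krt14 (chr11:100093988-100098490) differed by -7.22 (SE 0.22), with 7.37 to 13.7 in luminal and 1423 to 1796 in basal libraries. Acta2, smooth muscle actin of the contractile apparatus (chr19:34217737-34232990), was at 12.2, 8.84, 22.3 and 19.4 in luminal and at 2426, 3119, 2409 and 3780 in basal libraries, a difference of -7.52 (SE 0.26, adjusted p = 1.2e-06). All 5 markers took the side of their label in each of the 4 mice. Markers of the opposite lineage were not equally low on both sides. Krt5 in a luminal library was 0.247 to 0.551% of its level in the basal library of the same mouse, and Acta2 0.284 to 0.925%, whereas Krt8 in a basal library was 19.5 to 26.5% of its luminal level and Krt18 7.69 to 12.8%. Sorted libraries are bulk samples, and fewer cells of a type and less RNA per cell cannot be told apart in them.

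**Figure D1:**
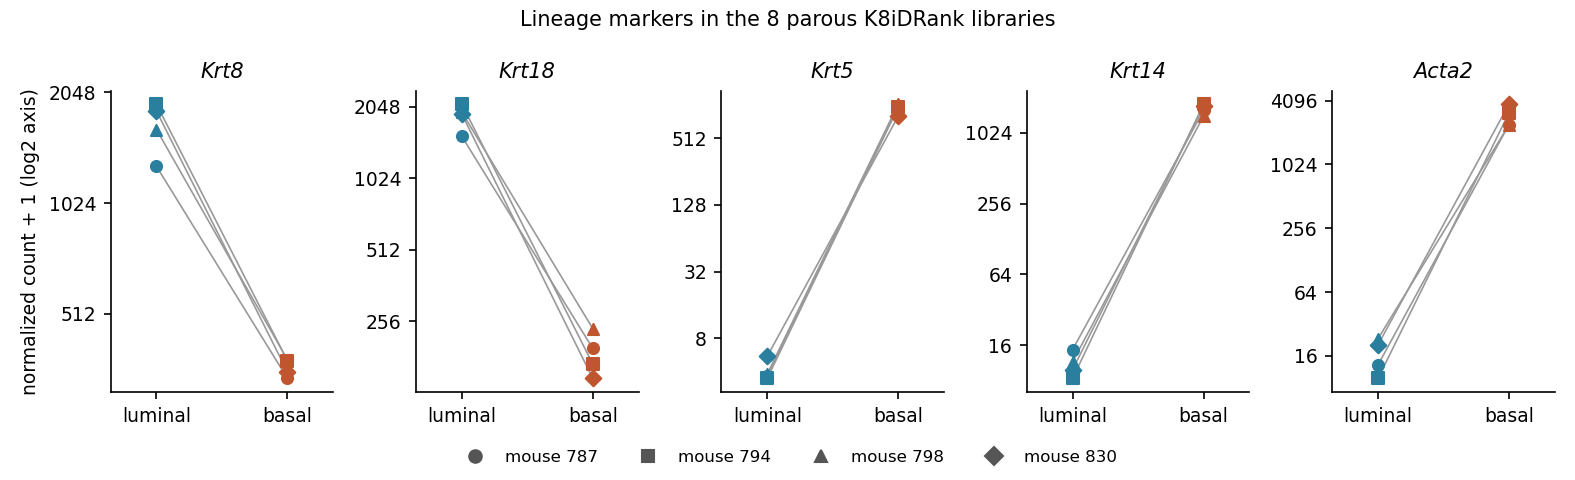
Normalized count + 1 (log2 axis) of 5 lineage markers in the luminal (blue) and basal (orange) library of each parous K8iDRank mouse, with a line joining the libraries of 1 mouse and symbols marking the mouse. Krt8 and Krt18 go from at least 1288 normalized counts in luminal to 146 to 383 in basal libraries, while Krt5, Krt14 and Acta2 go from at most 22.3 to at least 811.

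Across the table, 3546 of 10913 genes tested (32.5%) were called at an adjusted p below 0.05. Of these, 1673 (15.3% of genes tested) were higher in luminal and 1873 (17.2%) in basal cells. Both shares are the background for the counts of listed genes below. The luminal and basal libraries did not overlap for 1964 genes higher in luminal (18.0%) and 2046 genes higher in basal cells (18.7%). The median log2 difference over all genes was 0.0179, so the values below are close to differences from the typical gene. Large differences were mostly basal, with 123 genes beyond 5 on the log2 scale in basal and 5 in luminal cells, and with 469 and 306 beyond 3. Of the called genes, 3490 (98.4%) moved the same way in all 4 mice. Leaving out mouse 830 left 2547 calls and leaving out mouse 794 left 2798.

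**Figure D2:**
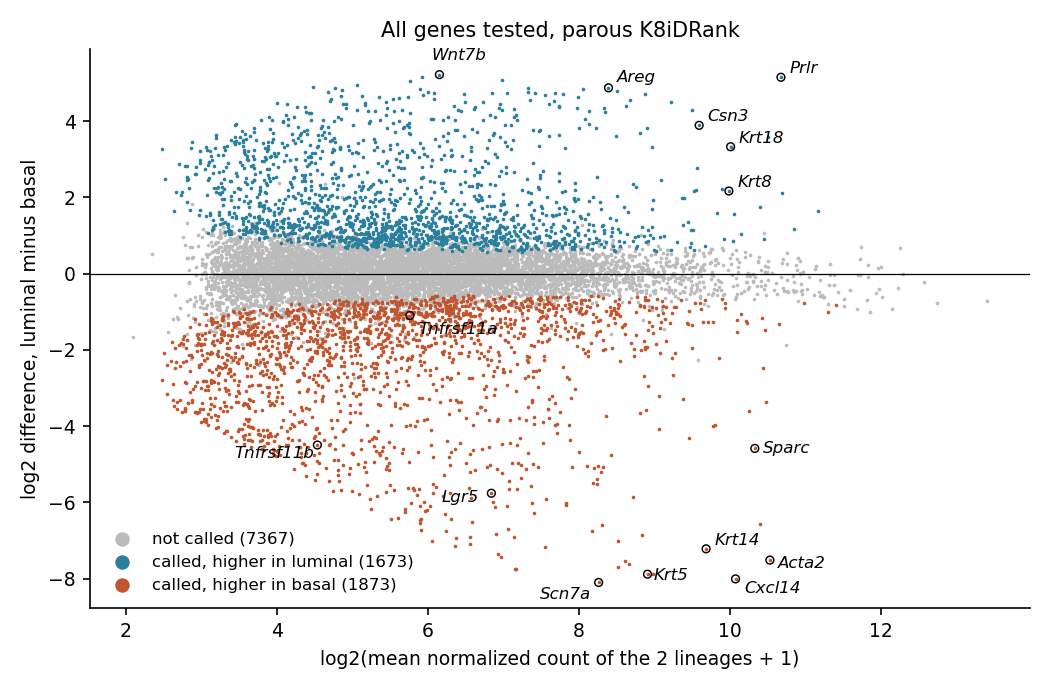
Log2 difference, luminal minus basal, against log2 of the mean normalized count of both lineages for the 10913 genes tested in parous K8iDRank mice, colored by call. The basal side reaches below -8 (Scn7a, Cxcl14), while the luminal side stops near 5 (Wnt7b, Prlr).

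Listed luminal epithelial genes were nearly all higher in luminal cells, 18 of 20, with none higher in basal cells and a median log2 difference of 2.65. The largest differences were those of Muc1, an apical mucin, with 138 to 191 normalized counts in luminal and 2.07 to 10.6 in basal libraries (4.72, SE 0.36, limma adjusted p = 2.5e-05), and of the epithelial transcription factor Ehf, with 229 to 594 against 6.38 to 27.3 (4.72, SE 0.39). Krt7 and Krt19, keratins of simple epithelia, differed by 4.45 and 4.41. Epcam, an adhesion molecule, was at 1054 to 1307 in luminal and 236 to 312 in basal libraries. Cd24a, which encodes the CD24 used to set the sort gate, differed by 0.82 (adjusted p = 0.0137). The members that were not called were Spint2, a protease inhibitor (0.50, adjusted p = 0.187), and Grhl2, a transcription factor of epithelial junctions, with 55.6 to 83.3 in luminal and 69.5 to 76.1 in basal libraries (-0.14, adjusted p = 0.643).

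All 19 basal keratin, adhesion and transcription factor genes tested were higher in basal cells, with no overlap between the lineages for any of them and a median of -4.06. Trp63, the p63 transcription factor of stratified and basal epithelia, was at 0, 1.47, 0.557 and 0.497 in luminal and at 160, 203, 168 and 208 in basal libraries (-6.90, SE 0.28, limma adjusted p = 2.1e-06). Id4, an inhibitor of basic helix-loop-helix factors, reached 732 to 1275 in basal and 1.97 to 4.46 in luminal libraries (-7.88, SE 0.28). Snai2 (Slug) differed by -7.10 and Col17a1, a hemidesmosomal collagen, by -7.14. In contrast, the integrins that anchor both layers differed least. Itga6, the CD49f of the sort gate, differed by -1.27, and Itgb1 by -0.71, from 205 to 308 in luminal and 361 to 486 in basal libraries. The call of Itgb1 was lost without mouse 787, 798 or 830 (adjusted p 0.0757 to 0.124). Krt17 was at 417 in basal library 794 and at 822 to 1111 in the others, against 1.49 to 8.75 in luminal libraries.

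The contractile program followed the same side. All 20 myoepithelial contractile genes tested were higher in basal cells, again with no overlap, and their median was -4.52. Cnn1 (calponin) was at 2.66, 1.97, 2.23 and 3.48 in luminal and at 748, 845, 651 and 681 in basal libraries (-7.68, SE 0.23, limma adjusted p = 8.1e-07). Myh11, the smooth muscle myosin heavy chain, ranged from 410 to 1098 in basal and from 1.90 to 4.97 in luminal libraries (-7.55, SE 0.37). Mylk, the kinase that activates smooth muscle myosin, was at 2378 to 3033 against 19.8 to 41.7. Oxtr, the oxytocin receptor that triggers contraction, was at 387 to 616 in basal and 13.3 to 30.4 in luminal libraries (-4.68, SE 0.24). The smallest differences of the list were those of Pgm5 (-0.99), a protein of muscle adhesions, and Mrtfa (-1.08), the actin-regulated coactivator of serum response factor, whose call was lost without mouse 787 (adjusted p = 0.0633).

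Serum response factor binds the CArG box, a motif found in promoters of many smooth muscle genes. RefSeq promoters (GRCm38.p6, 250 bases before to 50 after the start) were available for 1401 of the 1873 genes higher in basal cells, and 42 of them (3.00%) held a CArG box. It was present in 16 of 1267 promoters (1.26%) of genes higher in luminal cells, in 139 of 8544 (1.63%) of all genes tested, and in 2 of 16 (12.5%) contractile genes with an entry. The motif is its own reverse complement in form, so 1 search covers both strands. A match is a description of the letters only. The contractile genes with a match were Myl9, the regulatory light chain of smooth muscle myosin, and Vcl (vinculin), which couples actin to adhesions. They are shown as the listed contractile genes whose promoter holds the motif, as 30 bases around each box on the plus strand of GRCm38.p6, at chr2:156775293-156775322 for Myl9 and chr14:20929161-20929190 for Vcl, with the box in capitals.
Myl9: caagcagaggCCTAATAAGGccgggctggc
Vcl: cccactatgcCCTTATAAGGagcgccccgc
The Myl9 box lies 161 to 152 bases upstream of the start and the Vcl box 227 to 218 bases upstream. Myl9 was at 715, 428, 625 and 517 normalized counts in basal and at 1.90, 5.40, 2.79 and 9.44 in luminal libraries (-6.75, SE 0.38, limma adjusted p = 5.7e-06). Vcl was more evenly shared, with 148 to 289 in basal and 46.2 to 81.9 in luminal libraries (-1.79, SE 0.29, adjusted p = 0.0016).

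Hormone-sensing genes were higher in luminal cells for 12 of 16 members tested, with a median of 3.77, against 2 higher in basal cells. In the whole set of genes tested, 15.3% were called luminal and 17.2% basal. Prlr, the prolactin receptor (chr15:10177258-10349959), was at 1678, 4761, 4144 and 2093 in luminal and at 26.6, 98.8, 165 and 94.7 in basal libraries (5.15, SE 0.28, limma adjusted p = 4.9e-06). Areg, the estrogen-induced EGF receptor ligand amphiregulin (chr5:91287451-91296291), was at 505 to 818 in luminal and 15.0 to 27.4 in basal libraries (4.87, SE 0.23). Prom1, which marks hormone-sensing luminal cells, differed by 4.75 and Wnt4, a progesterone target, by 4.15. Each of these separated the lineages without overlap.

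The receptors themselves varied between mice. Pgr, the progesterone receptor, was at 90.6, 575, 342 and 107 normalized counts in luminal libraries 787, 794, 798 and 830 and at 51.5, 47.0, 61.6 and 34.1 in the basal ones (2.12, SE 0.40, limma adjusted p = 0.0037). Mice 794 and 798 thus had the higher luminal Pgr, and the same mice had the higher luminal Prlr. Esr1, the estrogen receptor, was steadier, with 69.5 to 131 in luminal and 16.3 to 30.8 in basal libraries (2.02, SE 0.21). Greb1, an estrogen receptor target, was higher in basal cells, with 29.0 to 174 in basal and 1.11 to 5.89 in luminal libraries (-4.13, SE 0.35). Tbx3, a T-box factor of mammary development, was not called (0.65, adjusted p = 0.070).

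Of 12 luminal progenitor genes tested, 6 were higher in luminal cells, 1 in basal cells and 5 were not called (median 1.59). Across all genes tested, 15.3% were called higher in luminal and 17.2% in basal cells. Aldh1a3, a retinaldehyde dehydrogenase of progenitors, was at 419 to 714 in luminal and 14.6 to 34.8 in basal libraries (4.28, SE 0.28, limma adjusted p = 1.2e-05). Elf5, the transcription factor that drives alveolar differentiation, was at 110 to 199 against 3.86 to 9.83 (4.11, SE 0.33). Kit, a receptor tyrosine kinase of progenitors, was at 257, 136, 180 and 136 in luminal and at 3.00, 15.1, 17.6 and 18.1 in basal libraries (3.80, SE 0.48). Basal library 787 was the low one. Itgb3, the CD61 integrin, was on the basal side (-1.49, SE 0.27, adjusted p = 0.0032), although luminal library 830 (44.7) overlapped the basal range of 27.3 to 77.1. The SOX factors were shared, with Sox9 at 1252 to 1489 in luminal and 773 to 1299 in basal libraries (0.42, adjusted p = 0.171) and Sox10 at 226 to 450 and 267 to 450 (-0.14, adjusted p = 0.720).

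Milk and alveolar genes were higher in luminal cells for all 11 members tested, with a median of 3.07. Csn3 (κ-casein, chr5:88073438-88080524) was at 1385, 1004, 1368 and 1996 in luminal and at 46.3, 132, 81.4 and 151 in basal libraries (3.89, SE 0.30, limma adjusted p = 2.7e-05). Btn1a1, a milk fat globule membrane protein, differed by 4.74 (SE 0.31) and Lalba, the α-lactalbumin of lactose synthesis, by 4.62 (SE 0.33), with 38.5 to 115 against 0 to 4.78. Csn2 (β-casein) behaved differently. It was at 694, 8.84, 9.48 and 46.7 in luminal and at 66.1, 4.78, 7.92 and 15.0 in basal libraries (1.49, SE 0.47, adjusted p = 0.0392). Mouse 787 was far above the rest in both lineages, the luminal and basal ranges overlapped, and in mouse 798 the basal level was 83.6% of the luminal one. Without mouse 787 the difference of Csn2 was 0.86 (adjusted p = 0.141), without mouse 830 it was 1.46 (adjusted p = 0.117), and without the pairing by mouse the adjusted p was 0.358. Csn1s1 and Wfdc18, a casein and a whey-acidic-protein family member, were at 249 to 1327 and 577 to 1319 in luminal libraries, with no overlap with basal ones.

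**Figure D3:**
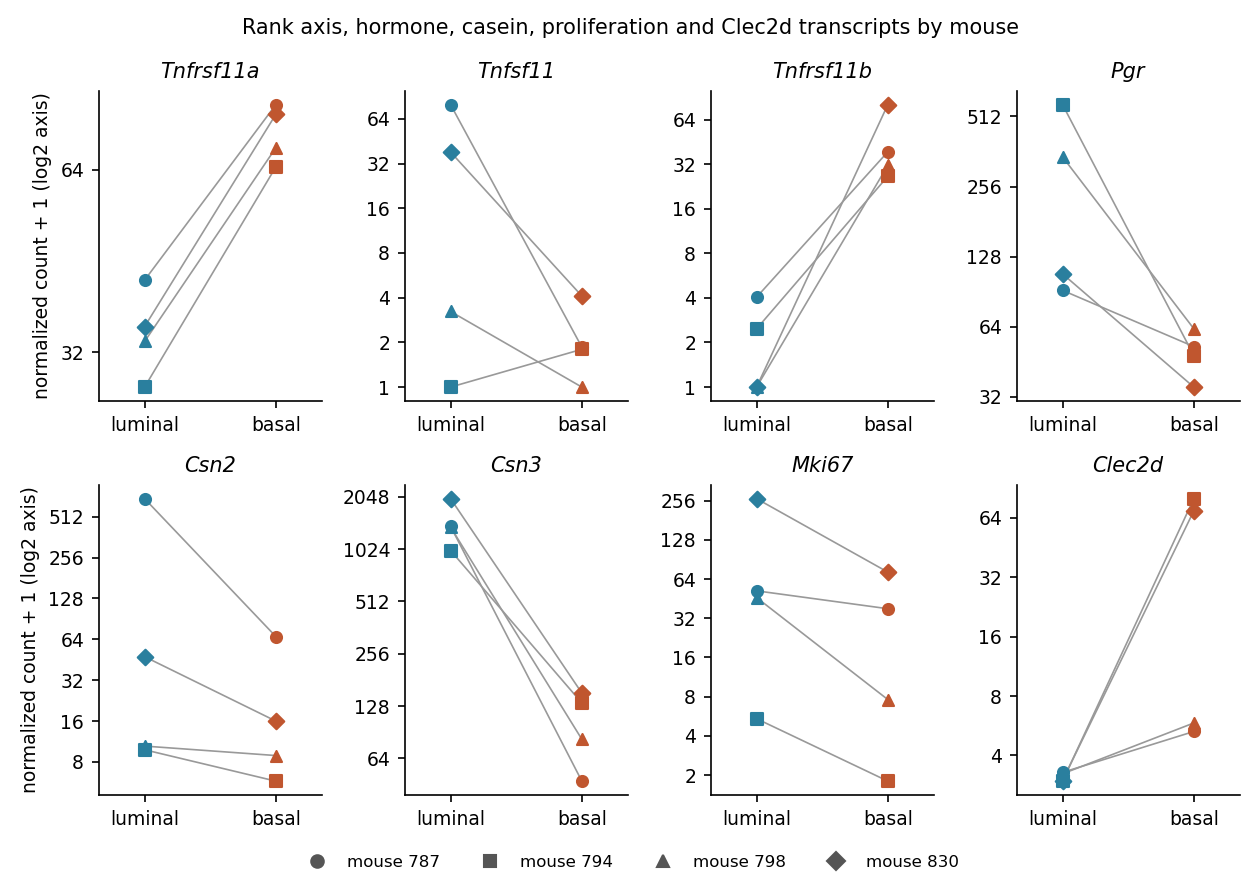
Normalized count + 1 (log2 axis) of 8 transcripts in the luminal (blue) and basal (orange) library of each parous K8iDRank mouse, joined by mouse. Tnfrsf11a and Tnfrsf11b rise in basal libraries of every mouse, Tnfsf11 and Csn2 spread widely among luminal libraries, Mki67 spans mice from 4.42 to 264 in luminal cells, and Clec2d is high in basal libraries 794 and 830 only.

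Secreted defence genes were divided, with 6 of 11 tested higher in luminal, 1 in basal and 4 not called (median 0.799). Of all genes tested, 15.3% were higher in luminal and 17.2% in basal cells. Wfdc2, a secreted protease inhibitor family protein, was at 546 to 1827 in luminal and 39.0 to 83.6 in basal libraries (4.30, SE 0.21, limma adjusted p = 3.6e-06), and Ltf (lactoferrin), an iron-binding antimicrobial protein, at 517 to 757 against 18.4 to 40.0 (4.24, SE 0.21). Slpi, the secretory leukocyte protease inhibitor, had the opposite pattern, at 604, 1604, 736 and 340 in basal and 33.5, 5.40, 7.25 and 10.9 in luminal libraries (-5.86, SE 0.54, adjusted p = 7.2e-05). C3, the central complement component, was at 34.6 to 213 in luminal and 59.8 to 356 in basal libraries and was not called (-0.99, adjusted p = 0.0578).

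Reads of the Rank gene were present in both lineages and higher in basal cells, and such reads cannot show whether the deleted exons were missing. Tnfrsf11a, which encodes Rank (chr1:105708358-105777170), was at 41.1, 27.0, 32.3 and 34.3 normalized counts in luminal and at 81.1, 63.8, 68.7 and 78.1 in basal libraries. The means were 33.7 ± 5.82 and 72.9 ± 8.07 (SD, n = 4), a log2 difference of -1.10 (SE 0.20, limma adjusted p = 0.0030). The lowest basal library lay above the highest luminal one. Tnfsf11, which encodes Rankl, was at 78.8, 0, 2.23 and 37.2 in luminal and 0.858, 0.797, 0 and 3.10 in basal libraries (2.37, SE 0.87, adjusted p = 0.0695). Only luminal libraries 787 and 830 were clearly above the others, and the difference was not called in the main fit, although it was 3.44 (adjusted p = 0.0057) without mouse 794 and 4.51 (adjusted p = 0.0040) in edgeR. Tnfrsf11b, which encodes osteoprotegerin, was almost restricted to basal libraries, at 37.8, 25.5, 30.4 and 79.7 against 3.04, 1.47, 0 and 0 (-4.50, SE 0.53, adjusted p = 0.00027). Luminal Tnfsf11 did not follow luminal Pgr, since Pgr was highest in library 794, where no Tnfsf11 read was found.

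Of the 24 Rank and NF-κB genes tested, 3 were higher in luminal and 3 in basal cells, Tnfrsf11a and Tnfrsf11b among the latter, and 18 were not called (median 0.12). Over all genes tested, 15.3% were called higher in luminal and 17.2% in basal cells. Traf5, a Rank adaptor, was higher in basal cells (2.28 to 13.4 against 33.9 to 46.2, -2.56, SE 0.38, limma adjusted p = 0.00095). Ikbkg (NEMO) and Bcl3, an atypical IκB protein, were higher in luminal cells by 0.88 (adjusted p = 0.0140) and 0.90 (adjusted p = 0.0249). Traf6 differed by 0.71 (adjusted p = 0.0460), and this call was lost when any of the 4 mice was left out (adjusted p 0.0628 to 0.161). Ikbkg lost its call without mouse 798 (adjusted p = 0.0636), and Bcl3 without mouse 794 (0.0929) or 830 (0.117). The inhibitor gene Nfkbia was at 1626 to 2872 in luminal and 1275 to 2456 in basal libraries (0.40, adjusted p = 0.314), and Nfkbiz at 284 to 656 and 215 to 390 (0.43, adjusted p = 0.317).

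In the Notch pathway the ligands were basal and the receptors that were called were luminal. Of 13 genes tested, 4 were higher in each lineage and 5 were not called (median -0.654). Among all genes tested the shares called were 15.3% luminal and 17.2% basal. Dll1 (chr17:15587276-15597134) was at 60.5, 172, 71.7 and 102 in basal and at 0.381, 0, 1.11 and 0 in luminal libraries (-6.18, SE 0.43, limma adjusted p = 1.5e-05). Jag2 was at 70.4 to 100 against 0.381 to 1.11 (-5.72, SE 0.31) and Jag1 at 162 to 204 against 21.4 to 82.5 (-1.94, SE 0.29). Both ligand families therefore stood apart between the lineages. Notch3 was at 126 to 167 in luminal and 8.15 to 21.2 in basal libraries (3.10, SE 0.25) and Notch1 differed by 1.24 (SE 0.21), while Notch2 (-0.42) and Notch4 (-0.79) were not called. The target Hey1 was luminal (2.20, SE 0.18, adjusted p = 3.9e-05), as was Nrarp, a feedback inhibitor (2.28, SE 0.38). The target Hes1 was at 279, 141, 300 and 94.9 in luminal and 156, 526, 197 and 597 in basal libraries, so it was higher in luminal cells of mice 787 and 798 and in basal cells of mice 794 and 830 (-0.77, adjusted p = 0.315 over all mice).

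Wnt pathway genes lay mostly on the basal side, 18 of 30 tested, against 5 on the luminal side and 7 not called (median -1.80). With 15.3% of all genes tested called luminal and 17.2% basal, the luminal count was near the share of all genes. Lgr5, an R-spondin receptor and stem cell marker (chr10:115286216-115423685), was at 177, 270, 262 and 187 in basal and at 1.52, 3.44, 2.79 and 5.46 in luminal libraries (-5.76, SE 0.28, limma adjusted p = 3.5e-06), and the related Lgr4 differed by -3.51. Dkk3, a Dickkopf family protein, differed by -5.56 (SE 0.31) and Nkd1, a feedback inhibitor, by -4.97 (SE 0.42). Axin2, a common target of β-catenin, was at 6.43, 22.3, 6.16 and 23.3 in basal and 0 to 1.52 in luminal libraries (-2.87, SE 0.57, adjusted p = 0.0050). Its higher basal levels were those of mice 794 and 830. Lgr6, in contrast, overlapped (130 to 218 in luminal, 154 to 361 in basal, -0.46, adjusted p = 0.179).

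Ligands were among the genes of both sides. Wnt7b (chr15:85419638-85466674) had the largest luminal difference among genes with a luminal mean of at least 100, at 121, 136, 168 and 125 in luminal and 3.00, 3.19, 4.40 and 1.03 in basal libraries (5.22, SE 0.27, limma adjusted p = 4.3e-06). Wnt4 (chr4:137004373-137027037) was at 179 to 238 against 8.80 to 16.6, and Wnt5b at 118 to 196 against 21.5 to 32.1 (2.59, SE 0.22). Wnt10a was the basal ligand, at 15.9 to 54.8 in basal libraries and with 1 luminal library above 0 (0.497). Wnt5a was at 80.7 to 292 in luminal and 164 to 242 in basal libraries and was not called (-0.26, adjusted p = 0.460). Rspo1, a secreted R-spondin that acts through Lgr receptors, was at 89.0, 3.44, 8.36 and 16.4 in luminal and 14.2, 2.39, 8.80 and 7.76 in basal libraries (0.97, adjusted p = 0.128), with mouse 787 the highest in both lineages.

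ErbB signaling genes were also divided by role. Of 10 tested, 6 were higher in luminal and 3 in basal cells (median 1.98), against 15.3% and 17.2% of all genes tested. Egfr was the basal receptor, at 163 to 194 in basal and 29.0 to 59.7 in luminal libraries (-2.04, SE 0.23, limma adjusted p = 0.00020). The other receptors were luminal, with Erbb3 at 104 to 223 against 5.58 to 9.68 (4.04, SE 0.27), Erbb4 differing by 2.93 and Erbb2 by 2.50. Among ligands, the EGF receptor ligands Areg and Btc (4.51, SE 0.36) were luminal, while the neuregulins that bind Erbb3 and Erbb4 were basal, Nrg1 at 32.7 to 67.3 in basal and 0.983 to 3.90 in luminal libraries (-4.06, SE 0.34) and Nrg2 at 22.0 to 54.8 against 6.39 to 15.4 (-2.04, SE 0.28). Tgfa was at 25.8 to 49.0 in luminal and 26.3 to 47.6 in basal libraries (-0.12, adjusted p = 0.725).

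Basement membrane and matrix genes were higher in basal cells for 19 of 23 tested, with none higher in luminal cells and a median of -2.94. The basal share of all genes tested was 17.2%. Sparc, a collagen-binding matrix protein, was at 3023, 1883, 2254 and 2694 in basal and 66.2, 102, 89.7 and 164 in luminal libraries (-4.59, SE 0.26, limma adjusted p = 6.5e-06). Col7a1, the collagen of anchoring fibrils, was at 294, 138, 112 and 492 in basal and 1.11 to 3.93 in luminal libraries (-6.10, SE 0.39). Lama1, a laminin α chain, was at 45.4 to 98.7 against 0 to 2.28 (-5.07, SE 0.30), and the collagen IV genes Col4a1 and Col4a2 differed by -3.72 and -4.32. Those not called included Agrn, at 200 to 230 in luminal and 186 to 442 in basal libraries (-0.47, adjusted p = 0.172), and Lamb2, at 50.6 to 107 and 57.9 to 111 (-0.11, adjusted p = 0.805).

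**Figure D4:**
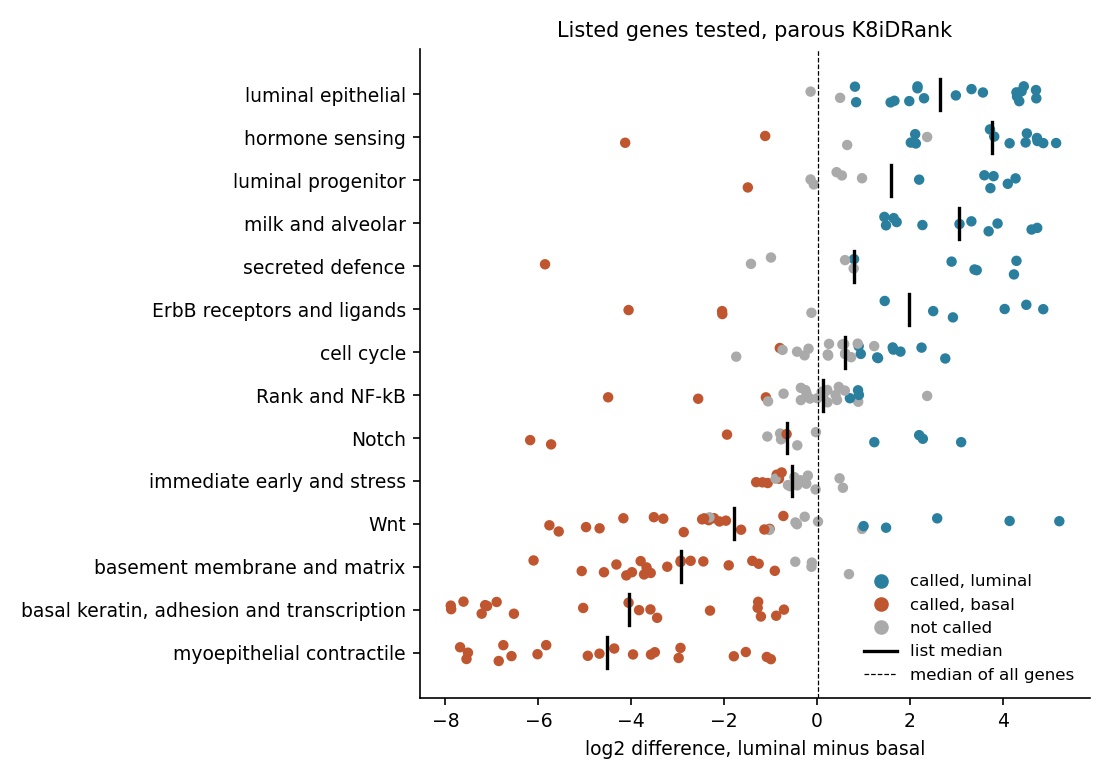
Log2 difference, luminal minus basal, of every tested gene of 14 lists in parous K8iDRank mice. Each point is a gene colored by its call, the thick bar is the list median and the dashed line the median of all genes tested (0.0179). The contractile and basal lists lie wholly on the basal side, the milk list wholly on the luminal side, and the Rank and NF-κB list is centered near the dashed line.

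Proliferation transcripts varied widely between mice. Mki67, the Ki-67 antigen, was at 51.0, 4.42, 45.1 and 264 in luminal libraries 787, 794, 798 and 830 and at 36.9, 0.797, 6.60 and 71.4 in basal ones (1.63, SE 0.35, limma adjusted p = 0.0071). Mouse 830 was the highest and mouse 794 the lowest in both lineages, so the ranges overlapped although the luminal library was higher in each mouse. Top2a, a topoisomerase of dividing cells, had the same order of luminal extremes, at 138, 25.1, 122 and 442 against 61.8, 6.38, 15.0 and 182 (1.80, SE 0.31, adjusted p = 0.0023), and the calls of Mki67 and Top2a were lost without the pairing by mouse (adjusted p = 0.322 and 0.173). Of 26 cell cycle genes tested, 9 were higher in luminal and 1 in basal cells, and 16 were not called (median 0.61). The shares over all genes tested were 15.3% luminal and 17.2% basal. Ccnd1 (cyclin D1) separated the lineages, at 1037, 958, 1558 and 1613 in luminal and 286, 67.8, 198 and 298 in basal libraries (2.76, SE 0.30, adjusted p = 0.00018). Pcna, the replication clamp, was higher in basal cells (-0.80, adjusted p = 0.0233), a call lost without mouse 794 (-0.63, adjusted p = 0.0874) or 830 (-0.73, adjusted p = 0.104).

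Immediate early and stress genes, which can be induced by tissue dissociation, were higher in basal cells for 6 of 18 tested and in luminal cells for none (median -0.533). For all genes tested these shares were 17.2% basal and 15.3% luminal. Junb was at 1102, 3769, 1272 and 1634 in basal and 877, 796, 1027 and 464 in luminal libraries (-1.17, SE 0.35, limma adjusted p = 0.0333), Ier2 differed by -1.06 (adjusted p = 0.0260) and Dusp1, a MAP kinase phosphatase, by -1.31 (adjusted p = 0.0210). Basal library 794 was the highest for all 3. Without mouse 794 the adjusted p was 0.108 for Junb, 0.0823 for Ier2 and 0.0516 for Dusp1, and without mouse 830 it was 0.159, 0.107 and 0.0913. Their part in other differences was not tested.

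Transcripts of other cell types were mostly on the basal side, where 17.2% of all genes tested were called. All 9 fibroblast genes tested were higher in basal cells (median -1.76), and the summed level of the list was 187 to 434 normalized counts in luminal and 744 to 1030 in basal libraries. Mmp2, a gelatinase of stromal cells, reached 81.0 to 155 in basal and 0.491 to 1.52 in luminal libraries (-5.67, SE 0.33, limma adjusted p = 6.6e-06). Endothelial genes were higher in basal cells for 6 of 8 (summed level 35.4 to 119 against 164 to 288), with Cdh5, VE-cadherin, at 10.3 to 21.5 in basal and 0.993 to 3.34 in luminal libraries. Pecam1, which encodes the CD31 of the exclusion gate, differed by -1.19, or by -0.94 without mouse 794 (adjusted p = 0.0616). Of 6 pericyte markers only Rgs5 and Pdgfrb were analysed here, and both were higher in basal cells (summed level 6.09 to 24.0 against 108 to 139). Fabp4, which fat and capillary cells express, was the only 1 of 6 adipocyte markers analysed here. It was at 111, 797, 199 and 324 in basal and 14.1 to 49.0 in luminal libraries, with basal library 794 the highest.

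Of 13 immune markers, 11 were not analysed here, Ptprc (CD45) included. Cd68, a macrophage marker, was at 16.7, 38.3, 8.36 and 7.76 in basal and 3.48 to 5.40 in luminal libraries (-1.55, SE 0.38, limma adjusted p = 0.0141). The call of Cd68 was lost with all 30 libraries in one fit (adjusted p = 0.0669) and in mice 787 and 798 (adjusted p = 0.0537). Of 4 Schwann cell genes tested, 3 were higher in basal and 1 in luminal cells, against 17.2% and 15.3% of all genes tested. The luminal one was Mbp, a myelin gene (1.81, SE 0.20). The 3 hemoglobin genes differed in direction. Hba-a1 was at 69.6, 7.86, 13.9 and 40.7 in luminal and 0.797 to 3.62 in basal libraries (2.80, SE 0.42), and Hbb-bs was 0 in every luminal library and 10.1 to 13.4 in basal ones, at least 6.8-fold higher when set against a floor of 3 reads per luminal library (1.67). Fibroblast, endothelial, pericyte and nerve transcripts thus moved with the matrix, contractile and basal groups, and their part in those results was not tested.

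Outside the lists, the largest differences among genes of at least 100 normalized counts in the higher lineage began with Scn7a, a sodium channel family member (chr2:66503769-66615367), at 438, 886, 757 and 360 in basal and 0, 1.47, 2.79 and 0.993 in luminal libraries (-8.10, SE 0.28, limma adjusted p = 1.2e-06), and Cxcl14, a chemokine (chr13:56436352-56444603), at 1412, 3364, 1975 and 1828 against 6.09 to 8.36 (-8.01, SE 0.23). Kctd4, a BTB domain protein, and Tenm2, a teneurin adhesion receptor, both differed by -7.75. On the luminal side stood Fam174b (5.15, SE 0.29), Fgb, the fibrinogen β chain (145 to 436 against 2.39 to 9.68, 5.07, SE 0.34), Col8a1, a short-chain collagen (4.87, SE 0.25), Mlph (melanophilin), which links vesicles to myosin (4.84), Scnn1b, a subunit of the epithelial sodium channel (4.84), and Hp (haptoglobin), at 407 to 1062 against 13.4 to 36.1 (4.80, SE 0.21). Nrxn3, a neurexin adhesion protein, had a similar difference (5.05, SE 0.65) on more variable levels, 7.99, 290, 80.3 and 46.2 in luminal and 0 to 2.20 in basal libraries. The luminal level of mouse 787 was the low one.

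Of the genes called, 39 were at 0 in all 4 luminal libraries and 1 was at 0 in all 4 basal libraries. Such genes could pass the filter only through the other lineage, so their direction was fixed by the selection and is a description only. The same filter bears on every gene with no library of 1 lineage above 10. Krt5, Trp63, Id4, Cnn1, Dll1, Tnfrsf11b and Scn7a on the basal side and Wnt7b on the luminal side are among them. Their side was set in large part by the filter, and their adjusted p-values are to be read with that limit. Those with the highest basal means, named after their values were seen, were Brinp3 (148, 152, 106 and 116 in basal libraries, at least 78.1-fold higher than the luminal floor), Reln, the secreted glycoprotein reelin (130, 41.4, 54.1 and 242, at least 69.9-fold), and Ephb1, an ephrin receptor (101, 59.0, 128 and 69.8, at least 53.4-fold). The 1 at 0 in basal libraries was Lyzl4, a lysozyme-like protein gene, at least 3.82-fold higher in luminal cells.

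The lineage difference was then taken separately in both kinds of mice. In mice 787 and 798, where all libraries were Clec2d-low, 3421 genes were called, and in mice 794 and 830, where the basal libraries were Clec2d-high, 5131. Each fit had 2 mice and few residual degrees of freedom, and the difference between the pairs was not tested. The pairs were set by basal Clec2d, so a gene whose basal level follows Clec2d differs between them by that choice. Of 10722 genes tested in both, 2415 were called in the same direction, which is 70.6% of the calls of the first pair and 47.1% of those of the second, and 71 were called in opposite directions. Lineage markers such as Krt5 and Prlr and also Tnfrsf11a lay on the same side in both pairs.

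The opposite genes, named after their values were seen, included nuclear genes of the respiratory chain. Cox7c, a subunit of cytochrome c oxidase, was at 134, 55.5, 142 and 80.0 in luminal and 75.9, 720, 80.5 and 690 in basal libraries, a log2 difference of 0.81 in mice 787 and 798 (limma adjusted p = 0.0117) and of -3.38 in mice 794 and 830 (adjusted p = 1.8e-05). Cox17, its copper chaperone, was at 44.5, 12.3, 49.6 and 1.99 in luminal and 14.6, 156, 29.5 and 98.3 in basal libraries (1.14 and -4.31). In both genes basal libraries 794 and 830 were the highest of the 8. Hes1 (0.72 and -2.27) and Anxa1 (annexin A1, 1.35 and -1.65) followed the same order, and Akap8l, a nuclear A-kinase anchoring protein, the reverse (-0.85 and 1.83). None of these 5 was called over the 4 mice, so their values in the pairs are a description and no result on the lineages. Among list medians, the hormone-sensing list was 4.59 in the first pair and 2.60 in the second, the cell cycle list 1.34 and 0.145, the milk list 1.95 and 3.30, and the Wnt list -1.03 and -2.34.

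**Figure D5:**
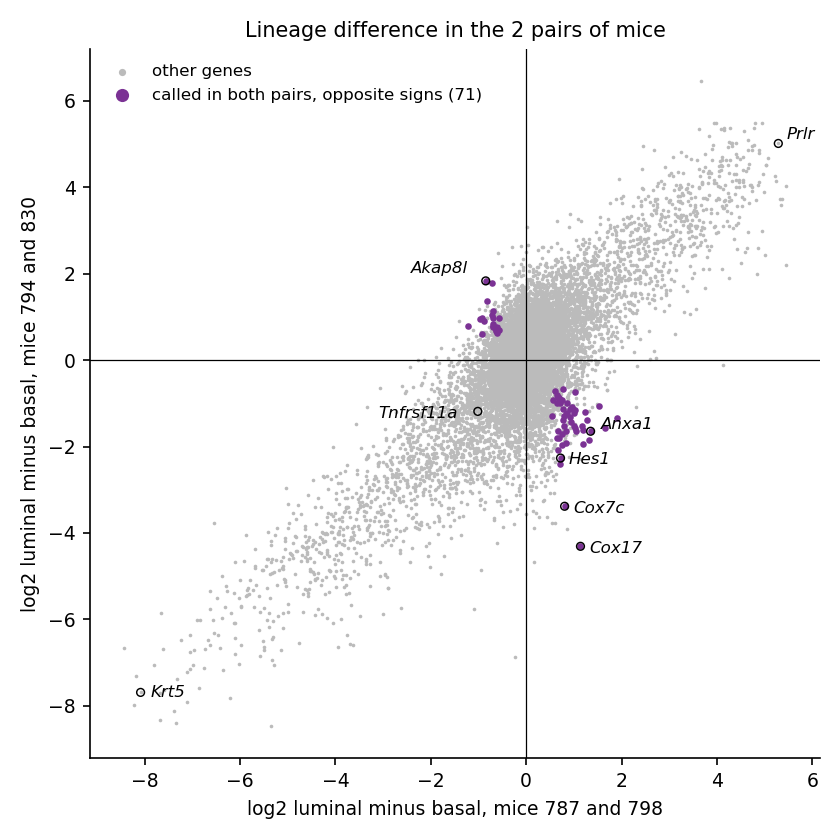
Log2 difference, luminal minus basal, of 10722 genes in mice 794 and 830 (vertical) against mice 787 and 798 (horizontal). Purple points are the 71 genes called in both pairs with opposite signs, 51 of them luminal in mice 787 and 798 and basal in mice 794 and 830, while Krt5, Prlr and Tnfrsf11a fall in the quadrants of equal sign.

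The question of whether Rank status of luminal cells altered the lineage difference was addressed against parous K8imTmG mice. The difference itself was compared between 4 K8iDRank and 4 K8imTmG mice, and 3 of 11016 genes (0.0272%) passed the adjusted threshold, with 1261 at an unadjusted p below 0.05. Rbm24, an RNA-binding protein (chr13:46571589-46584575), was at 71.9, 31.9, 56.3 and 33.3 in luminal libraries of K8iDRank mice and at 6.40, 1.76, 3.19 and 4.33 in those of K8imTmG mice. Its basal levels were 40.4 to 57.2 and 27.9 to 53.5. The lineage difference was -0.13 in K8iDRank and -3.23 in K8imTmG mice, an interaction of 3.10 (SE 0.42, limma adjusted p = 0.0393), and luminal libraries of the genotypes did not overlap. The luminal levels in virgin K8iDRank mice, 38.3 to 58.0, were also within the K8iDRank parous range. In virgin K8imTmG mice 531 and 538 luminal Rbm24 was at 10.9 and 9.57, with lineage differences of -2.30 and -2.58, and the genotypes were not tested against each other in virgin mice.

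Rspo1 (chr4:124879876-124902892) was at 244, 352, 144 and 173 in luminal libraries of parous K8imTmG mice, above all 4 luminal libraries of K8iDRank mice (3.44 to 89.0). Basal levels were 1.14 to 10.7 and 2.39 to 14.2, and the interaction was -4.33 (SE 0.59, limma adjusted p = 0.0393). Luminal Rspo1 was lower in virgin K8imTmG mice 531 and 538, at 24.35 and 2.21, and was 0 to 7.69 in virgin K8iDRank mice. Cish, a cytokine-induced inhibitor of Stat5 signaling (chr9:107173225-107179983), was higher in luminal libraries of K8imTmG mice and was not called between lineages in K8iDRank mice (adjusted p = 0.196), with 63.9 to 126 in luminal and 18.7 to 35.3 in basal libraries of K8imTmG mice and 49.6 to 90.2 and 58.2 to 111 in K8iDRank mice. The difference was 1.95 in K8imTmG and -0.37 in K8iDRank mice (interaction -2.32, SE 0.31, adjusted p = 0.0393). In parous mice it was the basal libraries of the genotypes that did not overlap. Basal Cish did overlap in virgin mice, at 102 and 16.5 in K8imTmG mice 531 and 538 and 58.9 to 93.6 in K8iDRank mice.

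These calls rest on few mice, and 5 of the 8 K8imTmG libraries were shallower than every K8iDRank library. The 4 basal K8imTmG libraries held 450064 to 1365008 reads, with 1 read worth 1.14 to 3.98, and luminal library 557 held 534445 reads at 3.20 each, so that the basal Rspo1 levels of mice 557 and 558 (3.98 and 1.14) were single reads. The part of this depth in the calls was not tested. These 5 libraries were also the Clec2d-high ones of the 8, so depth and Clec2d state cannot be told apart among them. No gene passed when mouse 532, 534, 558, 794, 798 or 830 was left out (864 to 1324 at an unadjusted p below 0.05), 2 passed without mouse 787 and 9 without mouse 557. Mouse 557 was also the one parous K8imTmG mouse with both libraries Clec2d-high. In mice with a Clec2d-low luminal and a Clec2d-high basal library only, 2 K8iDRank and 3 K8imTmG, 204 of 10862 genes passed, 73 with a higher and 131 with a lower difference in K8iDRank mice. Rbm24 (2.89, adjusted p = 0.0277), Rspo1 (-4.76, adjusted p = 0.0120) and Cish (-2.37, adjusted p = 0.0243) were among them, as was Csn2 (-3.22, adjusted p = 0.0165). In the fit with all 8 mice Csn2 had an interaction of -3.61 (SE 0.78, limma adjusted p = 0.153), with luminal levels of 889, 1955, 741 and 672 in K8imTmG mice and of 8.84 to 694 in K8iDRank mice. For Tnfrsf11a the interaction was -0.41 (SE 0.44, adjusted p = 0.754), and in the mice matched for Clec2d it was -0.95 (SE 0.36, adjusted p = 0.202). Luminal Tnfrsf11a was at 50.4, 64.9 and 49.3 in K8imTmG mice 532, 534 and 558, above every luminal K8iDRank library (27.0 to 41.1), and at 12.8 in mouse 557, below them. The list medians in parous K8iDRank and K8imTmG mice were 3.07 and 4.40 for milk and alveolar genes, 0.61 and 1.57 for cell cycle genes and -4.06 and -5.59 for basal keratin, adhesion and transcription factor genes, and these were not tested against each other. The genotypes also differed in how long the dams nursed, and in parous mice genotype and nursing cannot be told apart.

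Against virgin K8iDRank mice, 92 of 10911 genes (0.843%) differed in the lineage difference, 49 with a higher and 43 with a lower value in parous mice. All 3 virgin mice had Clec2d-high luminal and Clec2d-low basal libraries, a combination that no parous K8iDRank mouse had, so stage and Clec2d state cannot be told apart in this comparison. The virgin luminal libraries held 814455 to 1158036 reads and the basal ones 1323739 to 2104379. Clec2d, one of the 92, was the value used to mark the libraries, so its interaction of -7.10 is a description and no result on stage. The largest negative values with the lowest p among the other genes, Bax (-5.14), Kat6b-ps2 (-4.84), Cntfr (-4.76), Gm16630 (-4.44) and Metrn (-3.69), were all higher in luminal than in basal libraries of the virgin mice. Bax, an apoptosis effector, was at 66.0 to 90.4 in luminal and 2.48 to 6.44 in basal libraries of virgin mice. In parous mice it was at 4.95 to 9.82 in luminal and at 5.15, 51.0, 6.60 and 53.8 in basal libraries, the higher ones being those of mice 794 and 830.

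Other genes of this comparison included cell cycle, Notch and milk genes. Mki67 was higher in basal than in luminal libraries of virgin mice (48.3 to 124 against 3.96 to 48.1) and higher in luminal ones after parity (interaction 3.71, SE 0.61, limma adjusted p = 0.0351), and Pclaf, a PCNA-binding protein, had an interaction of 3.33 (SE 0.47, adjusted p = 0.029). Neurl1b, a ubiquitin ligase that acts on Notch ligands, was at 9.25 to 15.4 in luminal and 30.1 to 80.6 in basal libraries of virgin mice and at 26.0 to 80.5 and 15.1 to 26.2 in parous mice (3.30, SE 0.41, adjusted p = 0.029). Mgll, monoacylglycerol lipase, had an interaction of 3.23, Celf2, an RNA-binding protein, of 2.42 and Tgfb2, a TGF-β ligand, of 2.12. Csn3 was higher in luminal cells at both stages, with a lineage difference of 6.35 in virgin and 3.89 in parous mice (interaction -2.46, SE 0.44, adjusted p = 0.0442), with basal levels of 16.1 to 23.7 in virgin and 46.3 to 151 in parous mice, highest in mice 794 and 830. Greb1 was at 24.0 to 35.7 in luminal libraries of virgin mice and 1.11 to 5.89 in those of parous mice, while its basal levels overlapped (interaction -3.22, SE 0.52, adjusted p = 0.0351). No gene passed when mouse 794, 821, 822 or 830 was left out (1731 to 2712 at an unadjusted p below 0.05), 80 passed without mouse 825, 197 without mouse 787 and 400 without mouse 798.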

How the data were processed

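Sorted luminal and basal cells were profiled by QuantSeq 3′ mRNA sequencing. The authors trimmed reads with BBDuk, aligned them to GRCm39 with Bowtie2 and then removed duplicates by UMI with UMI-tools. The deposited signal values, normalized read counts, followed from the nextpresso pipeline, counting on Gencode vM26 and division by DESeq2 size factors. Every value in the 8 libraries came out as a whole number of reads within 0.01, so reads could be recovered. Intervals were not computed, and depth covers counting error only.

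The lineage difference was fitted in limma 3.58.1, with a mean-variance trend, mouse as a block and Benjamini-Hochberg adjustment, to log2(normalized count + 1), a scale that understates the change of low genes. Genes above 10 in at least 25% of the libraries compared were tested. In the lineage comparison, a gene at or below 10 throughout 1 lineage could thus pass only through the other. Luminal and basal libraries pair because they come from the same animal. Their deviations correlated at -0.178 to 0.0916. Each genotype or stage difference was tested on within-mouse differences. Alternatives were other pseudocounts, filters, scalings, weights, no block, each mouse left out, the Clec2d pairs, and edgeR 4.0.16 and DESeq2 1.42.0 on recovered reads. Tables used R 4.3.3 and Python 3.11.15. Coordinates are those of GENCODE vM39 and promoters those of RefSeq.

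Members and gene lists were chosen with earlier results of these data known. Named genes were the lineage markers, Tnfrsf11a, Tnfsf11, Clec2d and Csn2, the 10 largest differences per direction without overlap and with a mean of at least 100, up to 3 called members of a list per direction and the 2 most abundant not called, and up to 5 called genes per direction of each comparison of differences. Other genes were named after their values were seen. The values of some genes of these lists are not reported here.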

Additional observations from a re-analysis of the deposited data

Results flagged for a closer look

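Among 294 groups of 4 libraries examined on the log2 scale, 8 (2.72%) held a library far from the other 3 by Dixon's criterion, where chance alone flags about 1 in 20 groups. These were Kit in basal library 787 (3.00, others 15.1 to 18.1), Nkd1 in luminal library 798 (1.11, others 0), Nrg2 in luminal library 830 (15.4, others 6.39 to 7.25), Esam in luminal library 798 (11.7), Hba-a1 in basal library 794 (0.797, others 3.43 to 3.62), Neurl1b in basal library 794 (15.1, others 24.3 to 26.2), Col17a1 in luminal library 794 (0.491, others 0) and Wnt10a in luminal library 830 (0.497, others 0). With the other 3 libraries at 0, as for Nkd1, Col17a1 and Wnt10a, any read in the remaining library meets the criterion. The rate of 1 in 20 does not apply to such groups.

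The lineage difference (luminal minus basal, log2) differed between genotypes after parity for Rbm24 (3.10), Cish (-2.32) and Rspo1 (-4.33), by limma on within-mouse differences. None of these calls held when mouse 532, 534, 558, 794, 798 or 830 was left out. Genotype and nursing cannot be told apart in parous mice. Between stages in K8iDRank mice, the lineage difference was lower in parous mice for Bax (-5.14), Kat6b-ps2 (-4.84), Cntfr (-4.76), Gm16630 (-4.44), Metrn (-3.69), Greb1 (-3.22) and Csn3 (-2.46). Mki67 (3.71), Pclaf (3.33), Neurl1b (3.30), Mgll (3.23), Celf2 (2.42), Tgfb2 (2.12) and Lgr6 (1.91) had the higher value in parous mice. Clec2d (-7.10) also passed, but it is the value by which libraries were marked, so this restates the marking. Stage and Clec2d state cannot be told apart in the second comparison.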

How the results depend on the processing

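Of 146 named genes tested between the lineages, 119 were called. All called genes kept their direction under every alternative that could be computed, and 99 of them also kept their call. The count of calls stayed within 1.5 times of 3546 except with a mean of at least 50, which tests 5133 genes and gave 1492 (714 luminal, 778 basal). Leaving out each mouse gave 2547 to 3444 calls, 1205 to 1622 luminal and 1342 to 1822 basal. Without the block for pairing by mouse 4034 genes were called, edgeR gave 3412 and DESeq2 3496. Quantile normalization, which moved the median of all genes to 0.0709, gave 1853 luminal and 1755 basal calls.

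The comparison with K8imTmG mice, 3 genes, gave 51 with array quality weights, 204 in mice with a Clec2d-low luminal and a Clec2d-high basal library, 10 with quantile normalization, 8 with a pseudocount of 4, 1 without the replicate block and 0 with a pseudocount of 0.5 (1239 at an unadjusted p below 0.05 in limma) or a mean of at least 50 (671). It gave 0 to 9 with each mouse left out. The comparison with virgin mice, 92 genes, gave 1087 with array quality weights, 640 without the replicate block and 0 to 400 with each mouse left out. The cause was not tested.

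Genes that were not called and changed sign did so in mice 787 and 798 for Akap8l (-0.85), Anxa1 (1.35), Cox17 (1.14), Cox7c (0.81), Grhl2 (0.049), Hes1 (0.72), Notch2 (0.41), Rbm24 (0.23) and Tgfa (0.0125), and in mice 794 and 830 for Lamb2 (0.40), Mgll (0.47), Nfkbia (-0.10) and Sox10 (0.28). Array quality weights reversed Akap8l (-0.0070), Anxa1 (0.35) and Rbm24 (0.019), and quantile normalization Mgll (0.0034). With each mouse left out, the difference ranged from -0.13 to 1.02 for Akap8l, -0.71 to 0.70 for Anxa1, -0.44 to 0.22 for Lamb2, -0.24 to 0.16 for Mgll, -0.34 to 0.064 for Rbm24, -0.43 to 0.11 for Sox10 and -0.21 to 0.061 for Tgfa.

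Of the 8 libraries the shallowest was a basal one, and with 4 mice and no repeat library a gene that was not called may still differ. Levels near 1 read, 0.381 to 0.797 in these 8 libraries and up to 3.98 in the parous K8imTmG libraries, carry the counting error of single reads.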

Other observations

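Nuclear genes of mitochondrial energy production were examined after Cox7c and Cox17 had been seen. Genes were chosen by symbol prefixes of the respiratory chain and ATP synthase, with Cox7c and the copper chaperone Cox17 themselves among them. Of these 85 genes, 3 were called higher in luminal and 1 in basal cells over the 4 mice, and their median log2 difference was -0.0102. Over the 10722 genes tested in both pairs of mice, 1665 were called higher in luminal and 1832 in basal cells, and the median was 0.0247. In mice 787 and 798 the median was 0.342, with 71 of the 85 higher in luminal cells, and in mice 794 and 830 it was -0.278, with 59 higher in basal cells. Over the same 10722 genes the medians were 0.0154 and 0.0352, with 5475 higher in luminal cells in the first pair and 5221 higher in basal cells in the second. Of 83 cytosolic ribosomal protein genes none was called over the 4 mice by limma, with medians of 0.101 and -0.558 in the same pairs. The difference between the pairs was not tested.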
